A study of Mus musculus with 12 samples.

Results

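Neutrophils carry their weapons in granules that are filled in order while the cell matures in the bone marrow. The transcripts of 9 such genes were followed in whole mouse lung, and they were S100a8, S100a9, Csf3r, Cxcr2, Ngp, Camp, Ltf, Mpo and Elane. They were chosen by name, as every probe set whose platform annotation gave 1 symbol equal to a member, which found 9 probe sets, 1 for each gene, among 45101 on the array. Lungs of A/J mice were compared in 4 groups of 3 arrays, each array being the lung RNA of 1 animal. Control mice received the phosphate-buffered saline (PBS) vehicle for both exposures. OVA mice were sensitized to ovalbumin, an egg protein used to model allergic asthma, with 0.4 mg/kg into the peritoneum on day 0 and 30 mg/kg into the trachea on day 14, and then received PBS. PM mice received PBS and then 50 µl of a 10 mg/ml suspension of Baltimore ambient particulate matter, aspirated into the airway. OVA/PM mice received both exposures. The mice were male per the study's methods and 8 to 10 weeks old per the labels, and RNA was taken on day 4 after PM.

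Promyelocytes, an early stage of the lineage, make the azurophil granules with myeloperoxidase (Mpo) and neutrophil elastase (Elane). Myelocytes and metamyelocytes then make the specific granules, which hold lactoferrin (Ltf), the precursor of the antimicrobial peptide cathelicidin (Camp) and neutrophilic granule protein (Ngp). Late stages and circulating neutrophils carry S100a8 and S100a9, the subunits of the calcium-binding protein calprotectin, together with the receptors for granulocyte colony-stimulating factor (Csf3r) and for CXC chemokines (Cxcr2). A blood neutrophil therefore holds early granule proteins long after their transcripts have gone, and the transcripts, which the array reads, mark the stage of the cell. Below, S100a8, S100a9, Csf3r and Cxcr2 are called mature genes, Ngp, Camp and Ltf specific granule genes, and Mpo and Elane azurophil granule genes.

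The names OVA and PM carry a doubt. Where the study prints fold changes of both exposures for the same probe sets, these arrays give those values with the names OVA and PM exchanged. Cell markers did not settle the names. Of 6 eosinophil markers with a probe set, 4 were under the filter level described below on all 12 arrays, and Siglecf overlapped between the groups, at 8.96, 8.99 and 8.39 in the arrays labelled OVA and 8.44, 8.06 and 9.36 in arrays labelled PM. The ribonuclease gene Rnase2a was at 2.99, 3.03 and 3.29 in the former and 9.07, 7.98 and 10.49 in the latter. The monocyte and macrophage markers and those of dividing cells, given at the end, had higher mean levels in the arrays labelled OVA than in those labelled PM. The sizes of the whole response also differed. Against Control, 1953 probe sets were higher and 2373 lower past the test described below in the arrays labelled OVA. In those labelled PM 12 were higher and 4 lower. The groups are therefore called the arrays labelled OVA and the arrays labelled PM, and their values are given side by side. If the names were exchanged, the 2 groups would trade every value below and the sign of their direct comparison would turn. The comparisons of OVA/PM with each single exposure would trade too. The arrays with the OVA name would then be the arrays that received particulate matter. The description field of all 12 samples also calls the animal a control, so groups were taken from the sample titles. Array medians lay between 4.84 and 5.03 on the log2 scale, and 0 of 66 pairs of arrays held identical values.

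S100a8 and S100a9 lie 26.6 kb apart on chromosome 3 with 0 protein-coding genes between them, and Camp, Ngp and Ltf lie within 1.17e+03 kb of each other on chromosome 9. Their promoters are shown because the genes within each of these sets are compared with each other below. Each sequence runs from 250 bases before to 50 bases after the RefSeq start site on the GRCm38.p6 build, read 5′ to 3′ on the gene's strand. Capitals mark matches on either strand to TTNNGNAA, the pattern that C/EBP factors, drivers of granulocyte maturation, are known to bind. The positions are chr3:90668821-90669120 (plus strand) for S100a8, chr3:90695672-90695971 (minus strand) for S100a9, chr9:110419558-110419857 (plus strand) for Ngp, chr9:109849407-109849706 (minus strand) for Camp and chr9:111019042-111019341 (plus strand) for Ltf.
S100a8: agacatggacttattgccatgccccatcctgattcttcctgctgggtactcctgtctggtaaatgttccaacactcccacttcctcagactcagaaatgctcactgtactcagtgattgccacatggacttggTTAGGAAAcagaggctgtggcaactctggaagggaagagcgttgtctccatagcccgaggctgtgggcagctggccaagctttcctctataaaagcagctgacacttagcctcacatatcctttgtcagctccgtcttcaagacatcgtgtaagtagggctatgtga
S100a9: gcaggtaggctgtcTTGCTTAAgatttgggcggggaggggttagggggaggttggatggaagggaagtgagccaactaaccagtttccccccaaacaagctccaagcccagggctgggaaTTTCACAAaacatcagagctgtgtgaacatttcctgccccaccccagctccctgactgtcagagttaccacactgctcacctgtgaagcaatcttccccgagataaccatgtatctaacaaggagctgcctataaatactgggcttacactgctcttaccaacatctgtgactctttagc
Ngp: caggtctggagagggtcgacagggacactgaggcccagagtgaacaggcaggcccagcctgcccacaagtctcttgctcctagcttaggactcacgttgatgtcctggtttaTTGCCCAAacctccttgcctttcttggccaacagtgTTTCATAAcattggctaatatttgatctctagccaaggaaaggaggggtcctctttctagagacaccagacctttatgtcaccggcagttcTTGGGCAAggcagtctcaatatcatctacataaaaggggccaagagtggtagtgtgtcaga
Camp: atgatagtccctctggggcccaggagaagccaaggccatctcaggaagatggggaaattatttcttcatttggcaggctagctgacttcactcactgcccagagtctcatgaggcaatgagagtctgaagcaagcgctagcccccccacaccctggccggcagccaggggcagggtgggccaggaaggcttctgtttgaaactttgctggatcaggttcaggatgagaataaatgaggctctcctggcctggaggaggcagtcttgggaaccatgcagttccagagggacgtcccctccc
Ltf: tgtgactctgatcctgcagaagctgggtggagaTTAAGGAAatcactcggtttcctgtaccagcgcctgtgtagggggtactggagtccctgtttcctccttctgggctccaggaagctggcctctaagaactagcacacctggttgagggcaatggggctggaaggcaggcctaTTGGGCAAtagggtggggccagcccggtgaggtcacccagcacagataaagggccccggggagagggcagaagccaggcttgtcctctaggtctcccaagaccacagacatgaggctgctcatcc

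The pattern began 117 bases before the start site of S100a8, 236 and 130 bases before that of S100a9, 138, 102 and 11 bases before that of Ngp, and 217 and 75 bases before that of Ltf. The windows of Camp, Csf3r, Cxcr2, Mpo and Elane held 0 matches. Of 32851 mouse promoter windows of the same length, 40.7% held at least 1 match, so a match is a description of the sequence and not evidence of a bound site.

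S100a8 and S100a9, the subunits of calprotectin, were measured on every array and varied several-fold within every group. S100a8 had log2 intensities of 11.69, 13.57 and 14.35 in the Control arrays and 14.26, 10.75 and 12.25 in the arrays labelled OVA. It had 12.00, 10.66 and 9.60 in the arrays labelled PM and 11.44, 13.41 and 12.79 in the OVA/PM arrays. The lowest 2 values of the 12 were labelled PM, yet the highest array labelled PM exceeded the lowest of each other group, so all groups overlapped. S100a9 had 11.00, 13.13 and 14.12 in Control, 14.03, 9.92 and 11.54 in the arrays labelled OVA, 11.39, 10.17 and 8.89 in arrays labelled PM, and 10.56, 12.84 and 12.39 in OVA/PM. Its arrays stood in nearly the order of those of S100a8, and the group means of both genes ran, from high to low, Control, OVA/PM, OVA and PM. For S100a8 these means were 13.20 ± 1.37, 12.55 ± 1.01, 12.42 ± 1.76 and 10.75 ± 1.20 (SD, n = 3), and no neighbours in that order differed past the test.

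Csf3r, the receptor that granulocyte colony-stimulating factor uses to drive neutrophil production, had log2 intensities of 8.84, 10.17 and 11.13 in Control and 11.64, 8.73 and 10.10 in the arrays labelled OVA. It had 9.22, 8.46 and 7.86 in the arrays labelled PM and 9.36, 11.08 and 10.64 in OVA/PM. The OVA/PM arrays all lay above those labelled PM, by a gap that was narrow beside the spread, and every other pair of groups overlapped. Cxcr2, the receptor with which neutrophils follow CXC chemokines, had 4.76, 4.88 and 5.84 in Control, 6.21, 4.71 and 4.98 in the arrays labelled OVA, 4.91, 4.70 and 4.59 in arrays labelled PM, and 4.70, 5.65 and 5.02 in OVA/PM. It reached the filter level of 4.93, the median of all values, on 5 of 12 arrays and on no full group, so it was not tested.

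Ngp and Camp, the specific granule genes made in immature neutrophils, were near their own lowest values on most arrays and high on a few. Ngp had log2 intensities of 5.18, 4.46 and 11.16 in Control, 7.78, 4.64 and 5.04 in the arrays labelled OVA, 4.50, 4.47 and 4.43 in arrays labelled PM, and 4.77, 8.87 and 7.84 in OVA/PM. Camp had 2.56, 2.37 and 8.61 in Control, 4.08, 2.51 and 2.53 in the arrays labelled OVA, 2.41, 2.40 and 2.44 in arrays labelled PM, and 2.47, 5.25 and 2.60 in OVA/PM. Control replicate 3 held the highest value of both genes. The lowest Control array of each gene was under the filter level, so a fold is given against that level, and Control replicate 3 was at least 74.9-fold above it for Ngp and at least 12.8-fold for Camp on the linear scale. The arrays labelled PM were alike within 0.1 on the log2 scale for both genes, and none of them was high.

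The Control means of these genes therefore rested on 1 animal. With all 3 Control arrays the mean was 6.93 ± 3.67 for Ngp and 4.51 ± 3.55 for Camp (SD, n = 3), and without Control replicate 3 it was 4.82 and 2.46. The Ngp mean of the arrays labelled OVA lay 1.11 below Control with that array and 1.0 above it without, on the log2 scale. Without that array Camp lay 0.58 above Control in the arrays labelled OVA and 0.98 above in OVA/PM, where with it both lay below Control. Neither gene passed the filter in any comparison. In Control, in the arrays labelled OVA and in OVA/PM, the array highest in S100a8 was also the highest in Ngp and in Camp. In Control replicate 3 the erythroid membrane gene Slc4a1 also had its highest log2 intensity of the 12 arrays, 8.38 beside 7.46 and 6.66 in the other Control arrays. Of 4 erythroid markers with a probe set, 2 were under the filter level on all 12 arrays. The remaining marker, Alas2, had 8.62, 7.81 and 8.05 in Control replicates 1 to 3 and was highest in PM replicate 3, at 8.78. The part of Slc4a1 in the Ngp and Camp values was not tested.

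Ltf, the iron-binding lactoferrin that neutrophils store in specific granules and that glandular epithelium is also known to secrete, had a group pattern that no other member showed. Its log2 intensities were 7.94, 8.83 and 9.87 in Control and 8.77, 9.21 and 9.13 in the arrays labelled PM. They were 12.54, 11.33 and 11.97 in the arrays labelled OVA and 11.56, 11.81 and 11.73 in OVA/PM. All 6 arrays with the OVA name lay above all 6 without it. The group means from high to low were 11.95 ± 0.60 in the arrays labelled OVA, 11.70 ± 0.13 in OVA/PM, 9.04 ± 0.24 in those labelled PM and 8.88 ± 0.96 in Control (SD, n = 3). The first pair and the last pair in that order did not differ past the test.

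Mpo and Elane, the azurophil granule genes of promyelocytes, stayed at a fixed low value. Mpo lay between 1.78 and 1.89 and Elane between 2.0 and 2.09 on the log2 scale over the 12 arrays, a range of 0.11 and 0.09. Neither reached the filter level on any array. At this signal a difference between groups was not detectable, which does not show that the transcripts were absent.

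**Figure D1:**
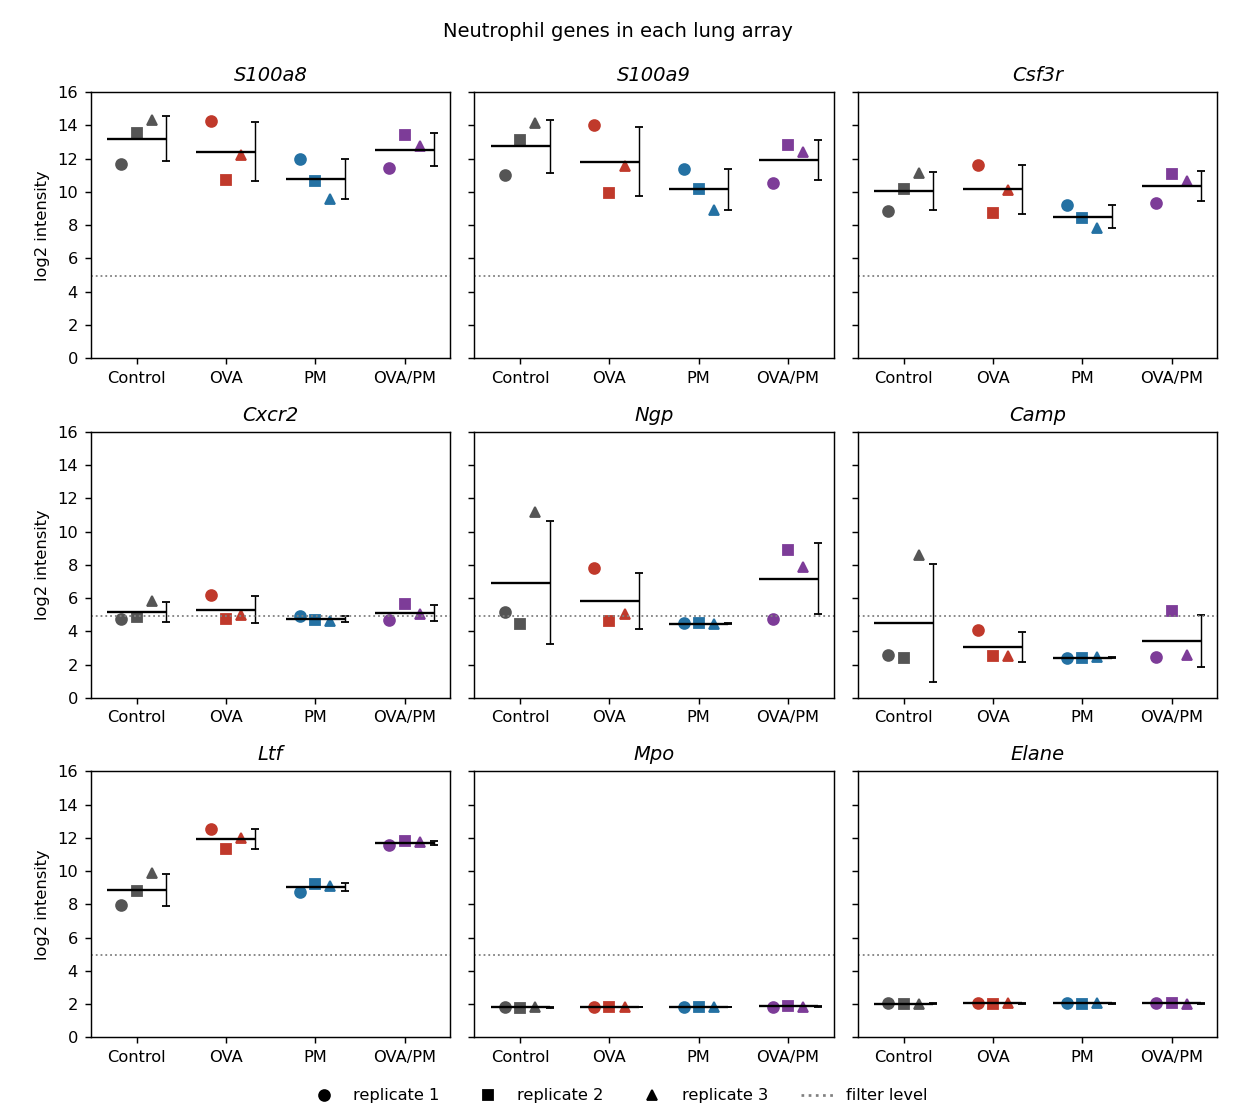
Log2 intensity (y axis) of each of the 9 members in the 4 groups (x axis), with 1 point per array, a line at the group mean, an error bar of 1 SD and a dotted line at the filter level of 4.93. Ltf separates the arrays with and without the OVA name, S100a8, S100a9 and Csf3r overlap between most groups, Control replicate 3 stands apart in Ngp and Camp, and Mpo and Elane are flat.

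Of the 9 members, 4 passed the filter in each comparison, which asked all 3 arrays of at least 1 compared group to reach 4.93. These were S100a8, S100a9, Csf3r and Ltf. Each comparison was tested with limma over all probe sets kept, with Benjamini-Hochberg adjustment over all of them and a threshold of 0.05.

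The effect of particulate matter alone was asked by setting the arrays labelled PM against Control. S100a8 was 2.45 lower on the log2 scale (SE 0.84, 5.46-fold, adjusted p = 0.553 in limma), S100a9 was 2.60 lower (SE 0.94, 6.07-fold, adjusted p = 0.562) and Csf3r was 1.54 lower (SE 0.62, 2.90-fold, adjusted p = 0.604). Ltf differed by 0.16 (SE 0.46, adjusted p = 0.945). None of the 4 members passed the threshold, against 0.0719% of all 22246 probe sets tested in either direction. The median difference of the 4 was -1.99, beside 0.0058 over all probe sets. Without Control replicate 3 the S100a8 difference was -1.88 (adjusted p = 0.528), and it stayed short of the threshold.

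The effect of ovalbumin alone was asked by setting the arrays labelled OVA against Control. Ltf rose by 3.07 on the log2 scale (SE 0.53, 8.39-fold, adjusted p = 0.0201 in limma). S100a8 had a difference of -0.78 (SE 1.04, adjusted p = 0.602), S100a9 of -0.92 (SE 1.22, adjusted p = 0.599) and Csf3r of 0.10 (SE 0.87, adjusted p = 0.940). Of 22498 probe sets 8.68% were higher and 10.5% lower, so 1 of 4 members called is not set against a rare background. The median difference of the 4 members was -0.34, beside -0.050 over all probe sets. The Ltf call was lost without Control replicate 2 (adjusted p = 0.0704), without OVA replicate 1 (0.0649) and without OVA replicate 3 (0.0809).

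Both exposures together gave the same order of members. In OVA/PM against Control, Ltf rose by 2.82 (SE 0.45, 7.07-fold, adjusted p = 0.00899 in limma), and this call held without each array in turn. S100a8 had a difference of -0.66 (SE 0.78, adjusted p = 0.576), S100a9 of -0.83 (SE 0.91, adjusted p = 0.547) and Csf3r of 0.31 (SE 0.67, adjusted p = 0.768). Of 22538 probe sets 10.9% were higher and 10.9% lower. The median difference was -0.17 over the 4 members and -0.033 over all probe sets.

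Whether a second exposure changed the members was asked by setting OVA/PM against each single exposure. Against the arrays labelled OVA, the differences of S100a8, S100a9 and Csf3r were 0.13, 0.10 and 0.20, that of Ltf was -0.25, and none passed the threshold (adjusted p = 0.803 to 0.984 in limma), where 0.13% of 22379 probe sets did. Against the arrays labelled PM, Ltf rose by 2.66 (SE 0.15, 6.34-fold, adjusted p = 0.000586), and this call also held without each array in turn. There, 7.13% of 22428 probe sets were higher and 5.77% lower. Csf3r was 1.85 higher (SE 0.51, 3.60-fold, adjusted p = 0.0628), and it passed without OVA/PM replicate 1 (adjusted p = 0.0340). Ngp then also entered the test and passed, but it was kept only because the OVA/PM array low in Ngp had been left out, so that call is not counted as a result. S100a8 was 1.79 higher (SE 0.71, adjusted p = 0.152) and S100a9 1.78 higher (SE 0.79, adjusted p = 0.191).

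The direct comparison of the 2 single exposures set the arrays labelled OVA against those labelled PM. Ltf was higher in the former by 2.91 (SE 0.31, 7.52-fold, adjusted p = 0.0240 in limma), where 3.24% of 22404 probe sets were higher and 1.96% lower. S100a8, S100a9 and Csf3r were 1.67, 1.68 and 1.64 higher without passing (adjusted p = 0.292, 0.342 and 0.192). The Ltf call was lost on leaving out OVA replicate 1 (adjusted p = 0.0725), OVA replicate 3 (0.148), PM replicate 1 (0.0618), PM replicate 2 (0.0980) or PM replicate 3 (0.0642). Whether the effect of 1 exposure differed in the presence of the other was asked with an interaction term over all 12 arrays. The terms were 2.57 for S100a8, 2.70 for S100a9, 1.74 for Csf3r and -0.40 for Ltf (SE 1.39, 1.59, 1.11 and 0.60), and none passed (adjusted p = 0.844 to 0.961), where 0.0264% of 22688 probe sets did.

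**Figure D2:**
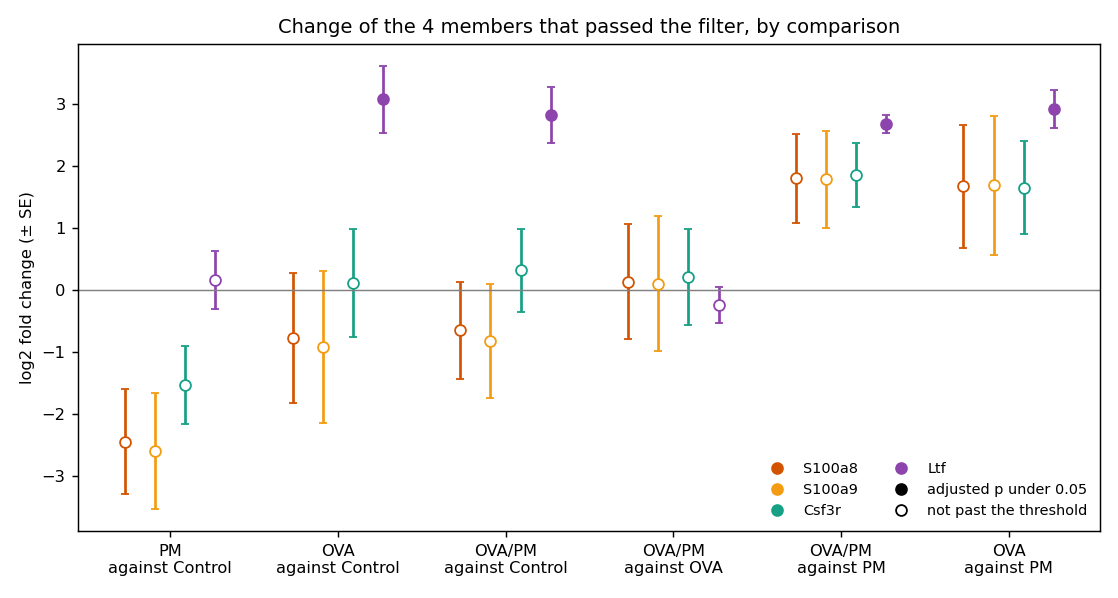
Log2 fold change (y axis, error bars of 1 SE from limma) of S100a8, S100a9, Csf3r and Ltf in 6 comparisons of 3 arrays each (x axis), with filled points where the adjusted p was under 0.05. Only Ltf passed, in the 4 comparisons where 1 side had the OVA name and the other did not, while the 3 mature genes had wide errors.

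Mature and early granule genes were contrasted by array, as the mean difference of each class from its Control mean. The mature genes differed from Control by -0.37 in the arrays labelled OVA, -1.75 in those labelled PM and -0.30 in OVA/PM, on the log2 scale. Since Mpo and Elane were flat, the mature minus azurophil difference followed the mature genes alone. It was -1.24, 0.18 and 1.06 in the Control arrays, 1.23, -1.77 and -0.62 in the arrays labelled OVA, -0.92, -1.80 and -2.59 in arrays labelled PM and -1.32, 0.38 and -0.09 in OVA/PM. All 3 arrays labelled PM were below 0, but they overlapped with the Control array at -1.24. The group means were -0.39 ± 1.51, -1.77 ± 0.83 and -0.34 ± 0.88 (SD, n = 3) in the arrays labelled OVA, labelled PM and OVA/PM, and without Control replicate 3 the mean of the arrays labelled PM was -1.24 and that of OVA/PM turned to 0.19. Against the 3 specific granule genes in place of the azurophil genes, the mature genes differed by -0.53, -0.29 and -0.96 in the same order of groups. That contrast rested on Control replicate 3. With all Control arrays Camp lay below Control in the arrays labelled OVA and in OVA/PM, where Ltf lay above it, and without that array Ngp, Camp and Ltf all lay above Control in both groups.

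**Figure D3:**
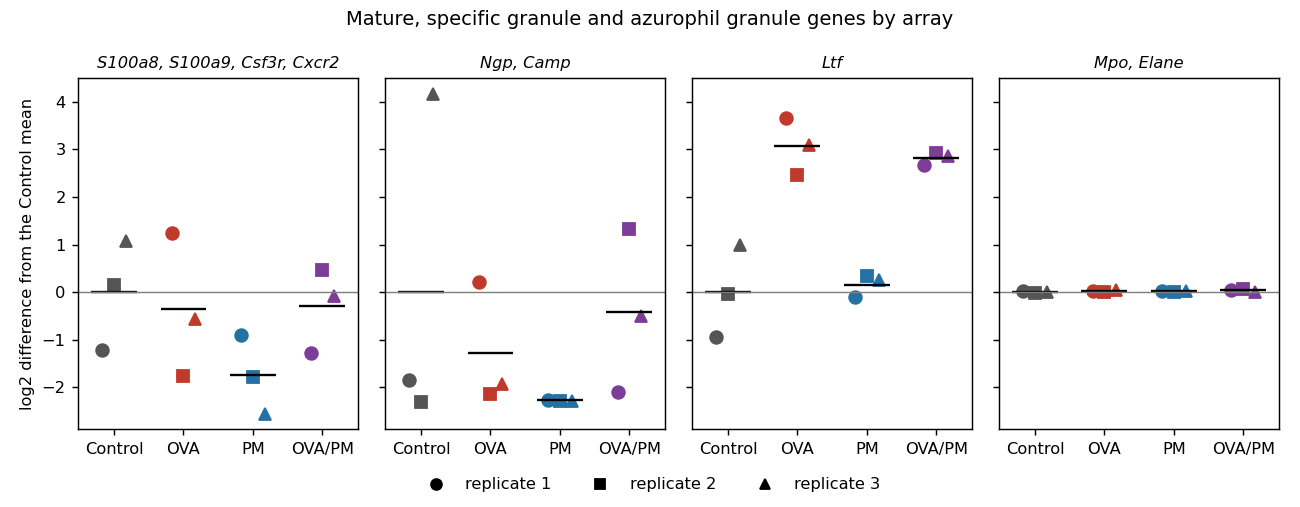
Mean log2 difference from the Control mean (y axis) of the mature genes, of Ngp and Camp, of Ltf and of the azurophil granule genes in each array of the 4 groups (x axis), with a line at each group mean. Control replicate 3 lies 4.16 above the Control mean for Ngp and Camp, Ltf is high in all 6 arrays with the OVA name, and Mpo and Elane do not leave 0.

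Members paired within a class varied together from animal to animal, and the classes were not separate. Ngp and Camp had a Pearson r of 0.742 and 0.641 with the mean of S100a8 and S100a9, values given with no test. Over the 12 arrays S100a8 and S100a9 had a Pearson r of 0.996 and a Spearman rho of 0.993 (permutation p = 1e-05, the smallest that 100000 resamples can give, two-sided, adjusted over 4 relations to 2e-05 and 4e-05). Without the 2 arrays farthest from the median of S100a8, r was 0.994, and over deviations from the group means it was 0.997. The permutations exchanged values over all 12 arrays whatever their group. The p-values of these relations therefore do not separate group differences from variation among animals, and the r within groups had no test. S100a8 and Csf3r had r = 0.952 and rho = 0.951 (permutation p = 1e-05 and 2e-05, adjusted 2e-05 and 4e-05), with r = 0.932 without the 2 farthest arrays and 0.987 within groups. Ngp and Camp had r = 0.904 and rho = 0.944 (permutation p = 5e-05 and 4e-05, adjusted 6.67e-05 and 5.33e-05), with r = 0.723 without the 2 farthest arrays and 0.930 within groups. The arrays of Ltf split into a high and a low set with the OVA name, which a pooled correlation mixes with the variation within groups. Pooled, S100a8 and Ltf, the fourth relation, had r = 0.314 and rho = 0.350 (permutation p = 0.313 and 0.267, adjusted 0.313 and 0.267), which did not pass. Over deviations from the group means their r was 0.699, so within groups Ltf also tended to be high where S100a8 was high.

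Among 11412 other genes compared over the 12 arrays, those most like the mean of S100a8 and S100a9 were Mmp9, the gelatinase of neutrophil granules (r = 0.929), Acox3, a peroxisomal oxidase (0.898), Trem3, a myeloid receptor (0.883), Stfa2l1, a stefin cysteine protease inhibitor (0.883), Rgl1 (0.849) and Stat3, a transcription factor downstream of the receptor Csf3r (0.842). Mmp9 was the only gene with r over 0.9. Those most like the mean of Ngp, Camp and Ltf were Ifitm6 (0.846), Zdhhc18 (0.835), Thbs1 (0.831), Drg2 (0.828), Glipr2 (0.817) and Mxd1 (0.814). The points of these correlations share the same arrays, and the values are a description with no test.

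Other genes of each stage were read from lists of known granule genes. Of 6 further azurophil granule genes 3 had a probe set, and none reached the filter level on any array. Ctsg, which encodes cathepsin G, lay between 2.23 and 2.38 and Ms4a3 between 1.81 and 1.89. Prtn3, which encodes proteinase 3, lay between 3.23 and 3.35 on 11 arrays and at 4.36 on Control replicate 3, the array that was also highest in Ngp and Camp.

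Some further specific granule genes rose with the OVA name, and others did not pass or were not tested. Of 17, 16 had a probe set. Of these 3 were under the filter level on all 12 arrays, so they entered no test. Against Control, 5 of the 11 tested rose and 0 fell in the arrays labelled OVA (median 1.87), where 8.68% of all probe sets rose. In OVA/PM 6 of 11 rose and 0 fell (median 2.26), where 10.9% of all probe sets rose. In those labelled PM 0 of 10 passed (median 0.0058), where 0.0719% of all probe sets did. Without single arrays the 5 became 1 to 6 and the 6 became 4 to 7, with the lowest counts without OVA replicate 3 and without Control replicate 2. Lcn2, the iron-scavenging lipocalin that epithelium is also known to make, had log2 intensities of 11.52, 11.75 and 11.93 in Control, 15.36, 14.01 and 15.17 in the arrays labelled OVA, 11.54, 11.56 and 12.23 in arrays labelled PM and 14.26, 15.08 and 14.80 in OVA/PM. It rose by 3.12 in the arrays labelled OVA (adjusted p = 0.00992 in limma) and by 2.98 in OVA/PM (adjusted p = 0.000801), and both calls held without each array in turn. Cd177, a neutrophil surface antigen, had 4.05, 4.63 and 7.91 in Control, 11.04, 9.29 and 10.38 in the arrays labelled OVA, 5.03, 5.53 and 4.51 in arrays labelled PM and 9.97, 10.87 and 10.58 in OVA/PM. Control replicate 3 was again the highest of its group, and the arrays with the OVA name did not overlap with the rest.

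Cd177 rose in the arrays labelled OVA (adjusted p = 0.0335 in limma) and in OVA/PM (0.0174). With 2 of 3 Control arrays under the filter level it was tested only through the groups where it was high, and with values under that level set to it the rise was at least 19.9-fold and 23.4-fold. The acute-phase gene Orm1 rose by 3.01 (0.0245) and 2.36 (0.0131), and Pglyrp1, a peptidoglycan-binding antibacterial protein, by 2.03 (0.0369) and 2.55 (0.00611). In the arrays labelled OVA each of these 3 calls was lost on leaving out any of 4 of the 6 arrays, with an adjusted p of at most 0.112, 0.0930 and 0.124. They were Control replicate 2, OVA replicates 1 and 3, and Control replicate 1 for Cd177 and Pglyrp1 or Control replicate 3 for Orm1. In OVA/PM the Cd177 call was lost without Control replicate 2 or any OVA/PM array (at most 0.0638), the Orm1 call without Control replicate 2 (0.0527), and the Pglyrp1 call held without each array in turn. Against the arrays labelled PM, 7 of 11 rose in OVA/PM (7.13% of all probe sets), of which 6 held without each array in turn and Itgam did not, and 5 of 11 rose in the arrays labelled OVA (3.24%). All 5 of the latter were lost without OVA replicate 1, OVA replicate 3 or any array labelled PM, and without the filter. Of these 7 and 5 genes Cd177 and Mmp8 had arrays labelled PM under the filter level. Between OVA/PM and the arrays labelled OVA 1 gene passed, Chil3, a chitinase-like protein that macrophages also make, which was higher by 1.81 (adjusted p = 0.0377). That call was lost without any of 5 of the 6 arrays, the exception being OVA replicate 2 (at most 0.278).

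Genes of the gelatinase granules, secretory vesicles and mature neutrophil surface did not all follow S100a8. Of 28, 19 had a probe set. Against Control, 6 of 15 rose and 0 fell in the arrays labelled OVA (median 1.29), where 8.68% of all probe sets rose and 10.5% fell. In OVA/PM 8 of 17 rose and 1 fell (median 1.37), where 10.9% rose and 10.9% fell, and in those labelled PM 0 of 13 passed (median -0.41). Of the 6 and the 8, 2 and 3 had Control arrays under the filter level. Clec4e, a receptor for fungal and mycobacterial glycolipids, had log2 intensities of 2.36, 3.61 and 6.73 in Control, 11.48, 9.53 and 11.02 in the arrays labelled OVA, 3.74, 3.13 and 2.49 in arrays labelled PM and 10.09, 11.28 and 11.02 in OVA/PM. It rose in the arrays labelled OVA (adjusted p = 0.0214 in limma) and in OVA/PM (0.00963). With 2 of 3 Control arrays under the filter level it too was tested only through the groups where it was high, and with values under that level set to it the rise was at least 35.4-fold and 38.5-fold. The related receptor Clec4d rose by 3.50 (0.0275) and 3.78 (0.00786) on the log2 scale, the IgG receptor Fcgr4, which had 1 Control array under that level, by at least 6.45-fold (0.0333) and 5.67-fold (0.0198), and Slc11a1, a metal transporter of phagosomes, by 2.58 (0.0191) and 2.64 (0.00460). These 4 genes are also known in monocytes and macrophages.

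In the arrays labelled OVA each of the 6 calls was lost without Control replicate 1, Control replicate 2, OVA replicate 1 or OVA replicate 3 (adjusted p at most 0.115). In OVA/PM the calls of Clec4e, Clec4d and Slc11a1 held without each array in turn, and that of Fcgr4 was lost without Control replicate 2, OVA/PM replicate 2 or OVA/PM replicate 3 (at most 0.0603). The 8 genes that rose in OVA/PM became 4 without Control replicate 2 or OVA/PM replicate 3. Mmp9, the gene most like S100a8 and S100a9, had 7.44, 8.11 and 9.16 in Control, 8.98, 6.88 and 7.49 in the arrays labelled OVA, 7.37, 6.47 and 6.81 in arrays labelled PM and 7.25, 8.38 and 7.40 in OVA/PM. All arrays labelled PM lay below all Control arrays, by a difference that did not pass (-1.36, SE 0.46, adjusted p = 0.542), and every other pair of groups overlapped. The gene that fell in OVA/PM was G0s2, an inhibitor of lipid breakdown, by 0.55 (adjusted p = 0.0364), a call lost without any of 5 of the 6 arrays, the exception being OVA/PM replicate 1 (at most 0.118), and without the filter. Against the arrays labelled PM, 11 of 17 rose in OVA/PM (7.13% of all probe sets) and 5 of 14 in the arrays labelled OVA (3.24%). Of the 11 and the 5, 4 and 2 had arrays labelled PM under the filter level and were tested only through the groups where they were high. The 11 became 6 without OVA/PM replicate 2 or 3. All 5 in the arrays labelled OVA were lost without OVA replicate 1, OVA replicate 3 or PM replicate 2 and without the filter. Of the 17 tested, 0 passed between OVA/PM and the arrays labelled OVA.

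**Figure D4:**
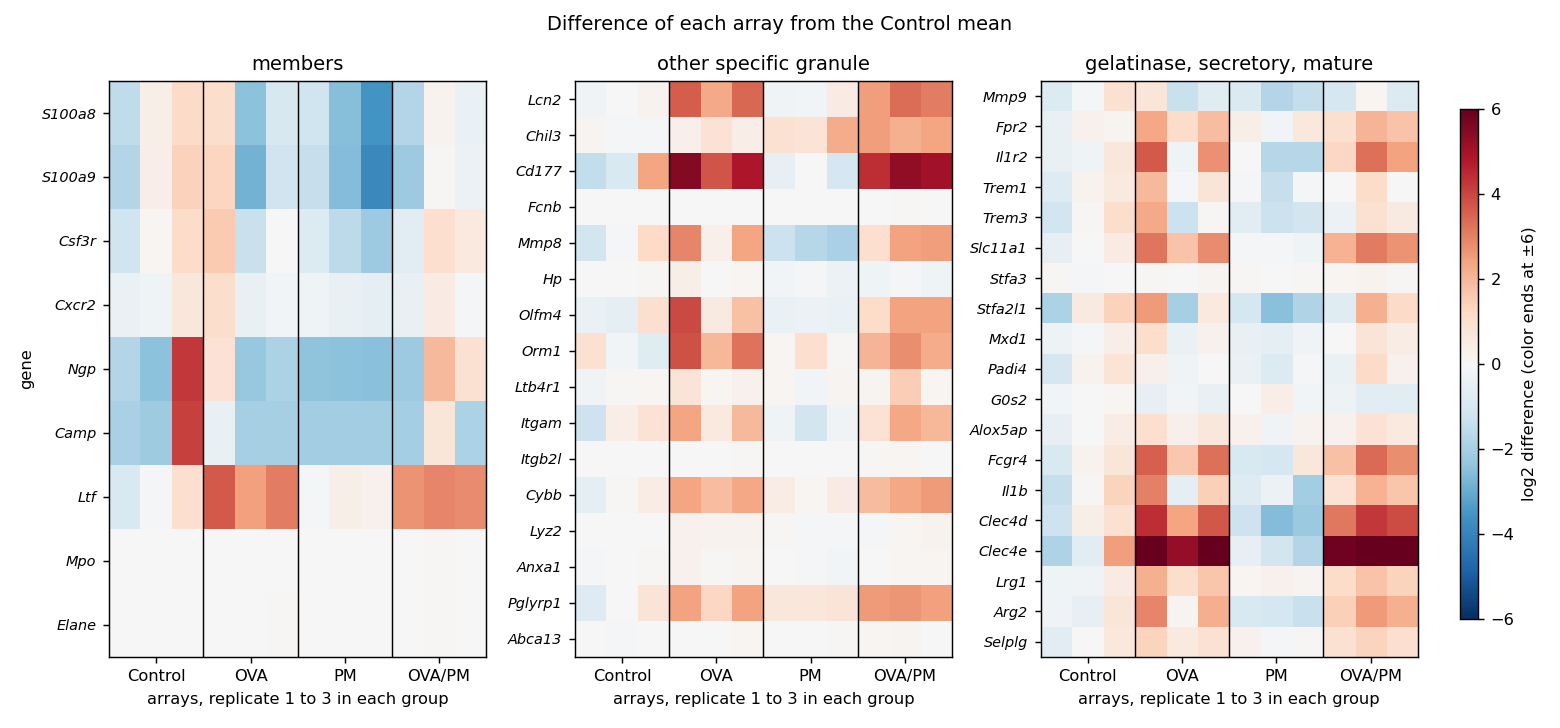
Log2 difference of each array from the Control mean (color, ending at ±6) for the 9 members, the 16 other specific granule genes and the 19 gelatinase granule, secretory vesicle and mature neutrophil genes with a probe set (rows), in replicates 1 to 3 of the 4 groups (columns). Ltf, Cd177, Lcn2, Clec4e and Clec4d are high in all arrays with the OVA name. Of those arrays, S100a8 and S100a9 are above the Control mean only in OVA replicate 1 and OVA/PM replicate 2.

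Of the chemokines that Cxcr2 reads, Cxcl2 and Cxcl3 rose in both groups with the OVA name, Cxcl1 and Cxcl5 passed in OVA/PM only, and Cxcl15 did not pass. All 10 genes of the list of neutrophil growth factor and attractants had a probe set. Against Control, 2 of 6 rose in the arrays labelled OVA (median 1.84, 8.68% of all probe sets), 4 of 7 rose in OVA/PM (median 3.08, 10.9%), 0 of 3 passed in those labelled PM (median -0.015), and 0 fell. Cxcl2, Cxcl3 and Cxcl5 had Control arrays under the filter level and were tested only through the groups where they were high, so their rises are bounds with such values set to that level. In the arrays labelled PM against Control they did not pass the filter and were not tested. Cxcl2 had 4.74, 9.92 and 4.21 in the arrays labelled PM, 2.79, 5.56 and 3.98 in Control and 12.25, 9.63 and 11.35 in the arrays labelled OVA. The ligand Cxcl3 had 3.66, 3.18 and 3.61 in Control, 12.36, 10.32 and 11.96 in the arrays labelled OVA, 3.65, 5.96 and 3.96 in arrays labelled PM and 11.70, 11.72 and 11.54 in OVA/PM. It rose at least 98.1-fold in the arrays labelled OVA (adjusted p = 0.00377 in limma) and at least 106-fold in OVA/PM (4.23e-06). Cxcl2 rose at least 61.3-fold (0.0120) and 56.1-fold (0.00182), and its call in the arrays labelled OVA was lost without OVA replicate 3 (0.0579). Cxcl5 rose at least 42.0-fold in OVA/PM (0.000939) and was uneven in the arrays labelled OVA, at 11.75, 3.65 and 9.95. Cxcl1 rose by 3.08 on the log2 scale in OVA/PM (0.00275), and its difference of 2.81 in the arrays labelled OVA did not pass (0.0675). Whether Cxcl1 and Cxcl5 differed between OVA/PM and the arrays labelled OVA was tested and did not pass (0.935 and 0.783). The array labelled OVA that was low in Cxcl5, replicate 2, was also the lowest of its group in S100a8, S100a9 and Csf3r.

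Of 8 transcription factors of granulocyte formation, 7 had a probe set and 6 were tested in each comparison. Against Control 2 rose and 1 fell in the arrays labelled OVA (8.68% and 10.5% of all probe sets), 2 rose and 0 fell in OVA/PM (10.9% each way), and 0 passed in those labelled PM. Myb, which keeps progenitors dividing, rose by 1.32 in the arrays labelled OVA (adjusted p = 0.00787 in limma) and by 1.03 in OVA/PM (0.0124), and both calls held without each array in turn. Spi1, which encodes the myeloid factor PU.1, rose by 1.29 (0.0474) and 1.14 (0.0390), and each of these calls was lost without any of 5 of the 6 arrays, the exceptions being OVA replicate 2 in the former and Control replicate 3 in the latter. Cebpd, a C/EBP factor, fell by 0.56 in the arrays labelled OVA (0.0346), a call lost without any of the 6 arrays (at most 0.113).

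Markers of other cells in the lung moved in the same arrays, and their part in the results above was not tested. In whole lung, fewer cells of a type and less RNA per cell cannot be told apart. Of 9 monocyte and macrophage markers, 6 rose in the arrays labelled OVA (8.68% of all probe sets), 7 in OVA/PM (10.9%) and 0 in those labelled PM. The 6 became 3 without Control replicate 1, Control replicate 2, OVA replicate 1 or OVA replicate 3, and 0 with the replicate number as a block, while the 7 became 6 to 8 without single arrays. Their mean log2 level was 9.24 to 9.62 in Control, 10.75 to 11.35 in the arrays labelled OVA, 9.55 to 10.28 in those labelled PM and 10.87 to 11.43 in OVA/PM. All 4 tested markers of dividing cells rose in the arrays labelled OVA (8.68% of all probe sets) and in OVA/PM (10.9%). Their mean level was 5.83 to 5.94 in Control, 8.97 to 9.77 in the arrays labelled OVA and 9.34 to 9.81 in OVA/PM. Of the 4, 1 had all 3 Control arrays under the filter level and was tested only through the groups where it was high. In the arrays labelled PM 0 of 3 passed (5.56 to 7.60). Of 4 endothelial markers 3 fell in the arrays labelled OVA (10.5% of all probe sets), 4 in OVA/PM (10.9%) and 0 in those labelled PM. Their mean level was 12.57 to 12.73 in Control, 11.83 to 12.17 in the arrays labelled OVA, 11.77 to 12.05 in OVA/PM and 12.52 to 12.60 in those labelled PM. The 3 became 0 without Control replicate 1, Control replicate 2, OVA replicate 1 or OVA replicate 3, and the 4 became 2 or 3 without single arrays. Of 6 epithelial markers 1 fell in the arrays labelled OVA (10.5% of all probe sets), 3 fell and 1 rose in OVA/PM (10.9% each way) and 0 passed in those labelled PM. Their mean levels lay between 13.96 and 14.14 over all arrays, and each of these calls but that of Hopx in OVA/PM was lost without some single arrays. Of 8 eosinophil markers 6 had a probe set and 4 of these were under the filter level on all 12 arrays. Of the 2 that were tested, Rnase2a alone rose, in the arrays labelled PM (0.0719% of all probe sets passed there) and in OVA/PM (10.9% rose). All 3 Control arrays of Rnase2a were under that level, so it was tested only through the groups where it was high. Its call in the arrays labelled PM was lost without any array but PM replicate 3 (adjusted p at most 0.211 in limma), and in 4 of 6 other settings. Its call in OVA/PM held without each array in turn. Of 2 erythroid markers tested 0 passed against Control in any group. Of 2 platelet markers 1 rose in the arrays labelled OVA (8.68% of all probe sets) and 1 in OVA/PM (10.9%). The platelet call in the arrays labelled OVA was lost without any array but OVA replicate 2.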

How the data were processed

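The authors deposited log2 intensities of 45101 probe sets per array, normalized over the arrays by GCRMA, which corrects background by probe composition, sets the arrays to 1 distribution and summarizes probes. The submitters' notes also name MAS5, with no versions. Such background correction holds dim probe sets at a fixed low value, and 3 arrays per group bound the precision. Of the probe sets 34945 had 1 gene symbol, 932 several and 9224 none, and 64 control probe sets were left out of the tests. Groups came from sample titles. Pairs of groups, and the interaction over 12 arrays, were fitted with limma 3.58.1 in R 4.3.3 on probe sets that reached 4.93 in all 3 arrays of at least 1 group. SAM, which the methods name, works by relabelling samples and was not run. Members were named in full. From each list up to 4 genes with the largest change against Control were named, as were the 6 genes most like each of 2 patterns. Rnase2a, Siglecf, Slc4a1, Alas2, Itgam, Mmp8, Cxcl15, Hopx, Prtn3, Ctsg, Ms4a3, Chil3 and G0s2 were named after their values were seen, and Mmp9 was followed from the likeness list. The members and lists were chosen with earlier results of these data known. Promoter sequences came from RefSeq, where 9 of 9 members matched. The fits were tested on simulated data. Alternatives tried were dropping the filter, filtering at the 75th percentile (8.65), further quantile normalization, an offset of 16, a replicate block, 1 fit of all 4 groups and leaving out each array.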

Additional observations from a re-analysis of the deposited data

Results flagged for a closer look

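Camp was singled out because the difference that went with the OVA name pointed in opposite directions with and without the PM name. Every array labelled OVA lay below the Control mean, by 1.47 on average on the log2 scale (-1.47). Every OVA/PM array lay above the mean of the arrays labelled PM, by 1.02 on average, but this average rested mostly on OVA/PM replicate 2, at 5.25. OVA/PM replicates 1 and 3 were at 2.47 and 2.60, beside a mean of 2.42 in the arrays labelled PM. These OVA/PM replicates and all arrays labelled PM were under the filter level. The difference that went with the OVA name was not tested with the filter, which Camp did not pass. Without the filter its interaction term was 2.49 (SE 2.15, adjusted p = 1.0 in limma). The Control mean of Camp was set by Control replicate 3, and without that array the arrays labelled OVA lay 0.58 above it.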

How the results depend on the processing

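No result changed direction past the threshold in any alternative. The Ltf calls in OVA/PM against Control and against the arrays labelled PM held in all 12 alternatives run for each. The Ltf call in the arrays labelled OVA against Control was lost without the filter (adjusted p = 0.0515 in limma) and with the replicate block (0.0685), so members past the threshold went from 1 to 0, and to 0 to 1 without each array. Against the arrays labelled PM it was lost without the filter (0.0764), from 1 member to 0, and gave 0 to 1 without each array. With the filter at the 75th percentile Csf3r joined Ltf in OVA/PM against the arrays labelled PM (0.0325, 2 members), and leaving out each array gave 1 to 3. Probe sets called without the filter numbered 6 (from 16) in PM against Control, 2432 (from 4326) in OVA against Control, with 1244 higher and 1188 lower, 10 (from 29) in OVA/PM against OVA and 4 (from 1165) in OVA against PM. The 75th percentile filter gave 1935 in OVA against PM and 3 (from 6) for the interaction. One fit of all 4 groups gave 38 in PM against Control and 3295 in OVA against PM. Leaving out each array gave 3 to 11 in PM against Control, 407 to 5284 in OVA against Control, 2188 to 4491 (from 4899) in OVA/PM against Control, 9 to 63 in OVA/PM against OVA, 1367 to 1870 (from 2894) in OVA/PM against PM, 4 to 3587 in OVA against PM and 4 to 11 for the interaction. The lowest came without PM replicate 2, OVA replicate 3, Control replicate 2, OVA/PM replicate 3, PM replicate 2, OVA replicate 1 and Control replicate 3 in that order. With specific granule genes counted as early, the mature minus early difference of the arrays labelled PM was -0.88 in place of -1.77. Without each array the mature minus azurophil difference, which had no test, ran from -1.20 to 0.30 in the arrays labelled OVA and from -0.96 to 0.19 in OVA/PM. The cause of these shifts was not tested. Every member had 1 probe set, so the alternative of another probe set per gene gave no value.

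Replicate numbers did not pair the samples. Same-numbered arrays formed 18 pairs, and in 3 of them the deviations from the group means correlated over 0.1 (median -0.0629, -0.452 to 0.395), and 2 of 12 arrays correlated best with their own number. The replicate block gave 4 probe sets in PM against Control, 89 in OVA against Control, 1377 in OVA/PM against PM and 711 in OVA against PM. Specific granule genes that rose in the arrays labelled OVA went from 5 to 0 with the block, gelatinase and mature genes from 6 to 0, and macrophage markers from 6 to 0.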
